A study of Mus musculus with 8 samples.

Results

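Hypoxia response and glycolysis genes were followed across 8 arrays of cells sorted from tail tumors of TAX-LUC mice. The list held 35 genes named by function, of which 32 were measured, from 19938 genes with a probe set of a single symbol. Each gene was read from its single-symbol probe set, and from the one with the highest mean where there were several. Eno1 and Gpi1 had no such probe set in the table. Gapdh was present only on 25 probe sets shared with other symbols, and over both populations these differed between genotypes by 0.34 to 0.52 on the log2 scale. All mice carried TAX and LUC. In this model the viral oncoprotein Tax is driven by the granzyme B promoter in cytotoxic lymphocytes, and luciferase reports Tax activity. Cells with high CD16/32 staining (CD16/32HI, labelled malignant large granular lymphocytes) and low staining (CD16/32LO, labelled tumor infiltrating cells) came from 2 IL-15+/+ and 2 IL-15-/- mice, 1 of each genotype at 14 months (replicate 1) and 1 of each at 12 months (replicate 2). The infiltrate of these tumors is largely neutrophils in the study's account. The IL-15-/- allele carries a PGK-Neo cassette, whose promoter is that of the phosphoglycerate kinase gene, Pgk1 in the mouse. Interleukin 15 sustains natural killer and memory CD8 T cells, and the design asks what its loss changes in the 2 sorted populations.

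Cells short of oxygen turn to glycolysis. When oxygen falls, the prolyl hydroxylases encoded by Egln1 and Egln3 no longer mark the transcription factor subunit HIF-1α (Hif1a) for destruction by the proteasome, and HIF-1 then binds short hypoxia response elements and raises glucose transporters, glycolytic enzymes, lactate export and angiogenic factors. Egln3 is itself a strongly inducible target and so part of a feedback loop. Neutrophils and activated macrophages rely heavily on glycolysis also in normal oxygen, and Hif1a RNA need not follow HIF-1α protein, which these arrays did not measure.

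Values are log2 signals after RMA, the background correction, normalization and summary of Affymetrix arrays, and a difference of 1 is a 2-fold change. The 2 arrays in each of the 4 groups limit the precision, and p-values rest on the spread between these few arrays or mice, moderated across genes by limma. The genotype fits within a population shared 1 spread over all 8 arrays and held no term for the mouse. Over both populations without the IL-15-/- mouse of replicate 1, the members had the same SE (0.34), which is not a gene's own spread. The arrays fell into 3 sets normalized separately: all of replicate 1, the IL-15+/+ arrays of replicate 2, and the IL-15-/- arrays of replicate 2. Pairs within a set shared 11 to 106 exactly equal values and pairs between sets 0. Genotype and normalization set therefore cannot be told apart in replicate 2. Array medians were 5.62 and 5.65 in the IL-15+/+ arrays of replicate 2 and 5.86 to 5.93 in the other 6. Xist was at 3.92 to 4.64 in IL-15+/+ and at 10.08 to 10.75 in IL-15-/- arrays, so that sex and genotype cannot be told apart either. The summed signal of 9 macrophage markers was 13.81 to 14.46 (log2) in the CD16/32HI arrays and 12.06 to 12.25 in the CD16/32LO arrays of 3 mice, and the summed signal of 10 neutrophil markers was 12.93 to 13.57 and 15.07 to 15.24. In the IL-15-/- mouse of replicate 1 these were exchanged, with macrophage markers at 11.91 in CD16/32HI and 14.12 in CD16/32LO and neutrophil markers at 15.38 and 13.56. The labels were kept as deposited, and the main differences that rest on this mouse are given with and without it. Genotype differences without it rest on the IL-15-/- mouse of replicate 2 alone, whose arrays were normalized apart from all IL-15+/+ arrays. The summed signal of 10 natural killer and large granular lymphocyte markers was 8.47 to 9.39 in the CD16/32HI arrays and 8.57 to 10.92 in the CD16/32LO arrays. Within mice 0 of the 10 had a higher mean in CD16/32HI cells. In the CD16/32HI arrays Ncr1 (4.10 to 4.85) and Gzma (4.01 to 5.46) lay below the array medians. Klrc1 (3.29 to 4.24), Klrb1c (4.27 to 4.70), Il2rb (4.82 to 5.51) and Eomes (4.79 to 5.62) lay below them. Klrd1 (6.26 to 7.87) lay above them, and Nkg7 (5.02 to 6.61) and Gzmb (4.50 to 6.18) on both sides.

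Of the 32 members 30 had a higher mean in IL-15-/- than in IL-15+/+ tumors, and 1 of them passed the test. Averaged over both populations of a mouse, Egln3 was higher in IL-15-/- mice by 1.26 on the log2 scale (limma, SE 0.23, adjusted p = 0.0390, 2 mice per genotype). This was 1 of 32 members, beside 0.171% of all 23410 probe sets with a gene symbol, and 15 members against 4.69% of all had an unadjusted p under 0.05, each of them higher. The median member was higher by 0.42, against 0.11 over all probe sets, and 72.2% of all probe sets, against the 30 of 32 members, were above 0. Centring each array on its median ended the Egln3 call (adjusted p = 0.199), as did quantile normalization (0.262) and leaving out the IL-15-/- mouse of replicate 1 (0.247), with a range of 7.86e-06 to 0.998 over 11 alternatives, while the difference stayed between 1.04 and 1.48 in all of them. Without that mouse 0 of 32 members were called, beside 0.47% of all (5 members at an unadjusted p under 0.05), and the member median was 0.44 against 0.12.

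In 12 members all 4 IL-15-/- arrays lay above all 4 IL-15+/+ arrays, beside 3.21% of all probe sets. That share covers probe sets of any signal, while the median member lay 1.75 to 2.55 above the median of its array. The 12 were Slc16a3, Hk2, Pfkl, Aldoa, Pgk1, Pgam1 and Ldha of glucose breakdown and lactate export, Pdk1, which restrains the oxidation of pyruvate in mitochondria, and Hif1a, Egln1, Bnip3 and P4ha1. In 0 members all 4 IL-15-/- arrays lay below, beside 0.513% of all. With each array centred on its median the 12 became 5 (Ldha, Pfkl, Pgam1, Slc16a3 and Pdk1), beside 1.28%. Within replicate 1, the one set that holds both genotypes, both IL-15-/- arrays lay above both IL-15+/+ arrays in 17 members, beside 11.1% of all.

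**Figure D1:**
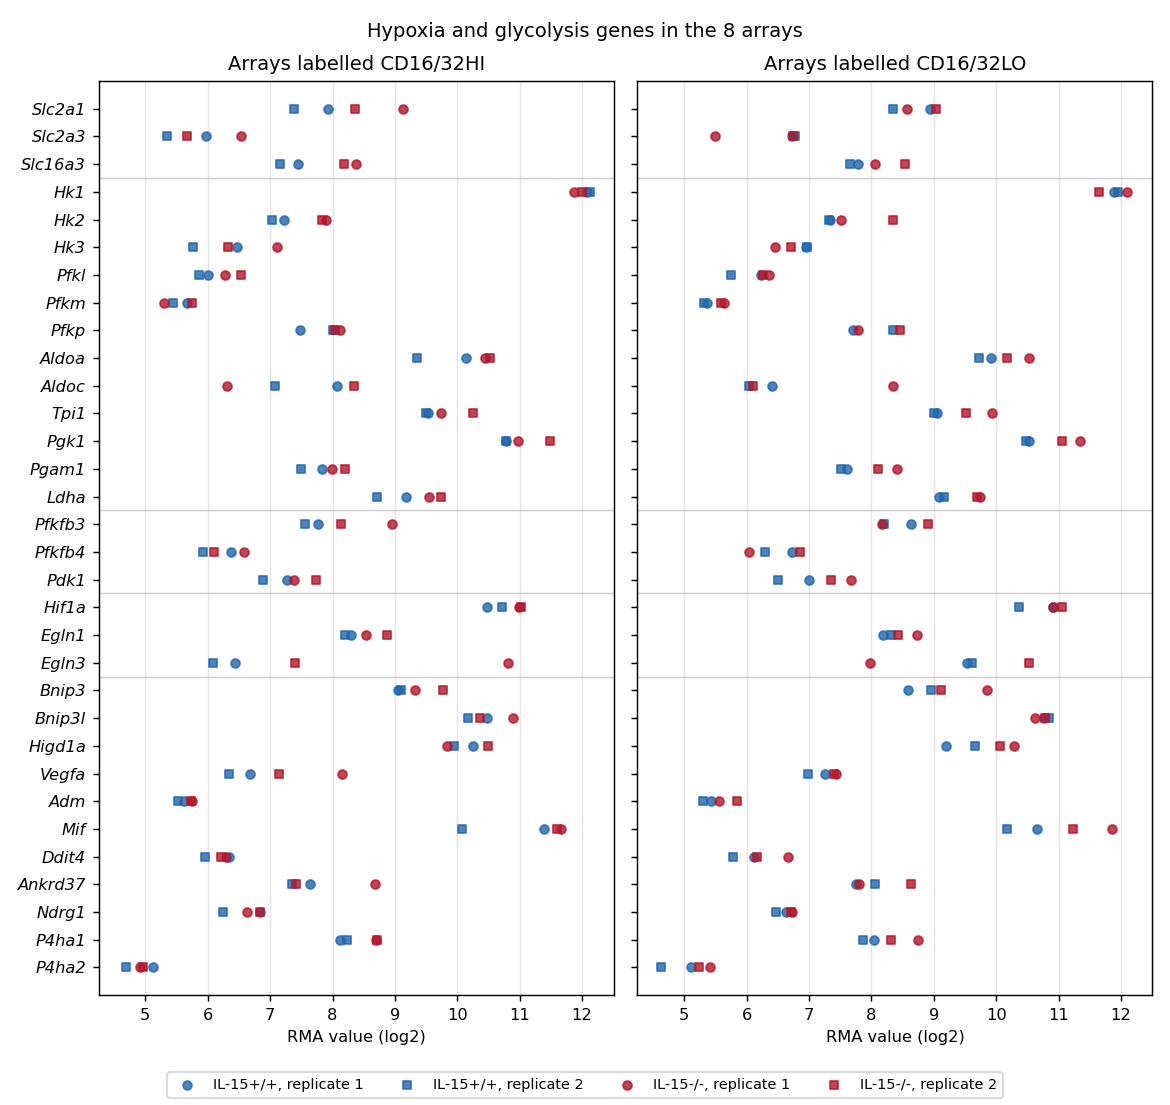
RMA values (log2, horizontal axis) of the 32 measured members (vertical axis, grouped as transporters, glycolytic enzymes, switches of flux, oxygen sensing and other hypoxia genes) in the arrays labelled CD16/32HI (left) and CD16/32LO (right). Each point is 1 array, blue for IL-15+/+ and red for IL-15-/-, circles for replicate 1 and squares for replicate 2. In 12 members every red point of both panels lies to the right of every blue point, and the widest spread within a group is that of Egln3 in the IL-15-/- arrays.

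The core letters of the hypoxia response element, ACGTG or GCGTG on either strand, were looked for in the 250 bases before each RefSeq start site (GRCm38.p6). They were present in 33 of 40 windows of the members (82.5%) and in 12679 of 32851 windows of all genes (38.6%). The windows of the members were also richer in G and C (median 61.6% against 52.4%), and ACGTG overlaps the E-box CACGTG, which was present in 12.5% of member windows and 6.0% of all. Of the 29 measured members with a window, 27 had a match in at least 1 window, and Tpi1 and Mif had no match in theirs. Bnip3l, Ndrg1 and Slc2a3 were not in the table. Stretches of 6 windows are shown, read 5′ to 3′ toward the start site, since Egln3 was the member called and the other 5 were among those higher in every IL-15-/- array. Capitals mark the matches, as ACGTG or GCGTG, or as CACGT or CACGC where the core is on the opposite strand.
Egln3, chr12:54203985-54204124, minus strand: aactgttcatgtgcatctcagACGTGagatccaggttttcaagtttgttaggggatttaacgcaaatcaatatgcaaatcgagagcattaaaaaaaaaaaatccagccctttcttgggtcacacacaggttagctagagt
Slc16a3, chr11:120949000-120949066, plus strand: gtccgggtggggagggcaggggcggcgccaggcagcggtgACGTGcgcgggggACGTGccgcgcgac
Ldha, chr7:46845716-46845803, plus strand: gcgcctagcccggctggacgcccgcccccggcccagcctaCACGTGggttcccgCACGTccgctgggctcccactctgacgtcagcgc
Pgk1, chrX:106186910-106187049, plus strand: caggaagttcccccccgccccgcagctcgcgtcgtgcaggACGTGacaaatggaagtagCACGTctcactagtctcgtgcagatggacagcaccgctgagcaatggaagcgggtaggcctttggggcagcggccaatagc
Pdk1, chr2:71873106-71873223, plus strand: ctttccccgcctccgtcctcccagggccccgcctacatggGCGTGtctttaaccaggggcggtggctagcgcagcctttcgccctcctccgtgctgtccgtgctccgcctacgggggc
Bnip3, chr7:138909524-138909663, minus strand: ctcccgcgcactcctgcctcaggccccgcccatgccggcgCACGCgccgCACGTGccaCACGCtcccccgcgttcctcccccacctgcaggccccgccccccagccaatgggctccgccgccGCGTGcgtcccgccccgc
The Slc16a3 and Ldha stretches, upstream of an inner start site, lie inside the gene's span in RefSeq, and the Pdk1 stretch ends just inside it. The Egln3 stretch held 1 match, near the far end of its window, and the Slc16a3 stretch held 2 within 27 bases of its start site. In Ldha and Bnip3 an E-box CACGTG counts once on each strand, which gave 3 and 5 matches. A match says only that the letters are there, and binding was not measured.

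Of the transporters, the lactate exporter Slc16a3 differed most evenly. In CD16/32HI cells it was at 7.45 and 7.16 in the IL-15+/+ arrays of replicates 1 and 2 and at 8.38 and 8.19 in the IL-15-/- arrays. In CD16/32LO cells it was at 7.79 and 7.66 against 8.06 and 8.54. The IL-15-/- arrays were the higher ones in both populations with no overlap, by 0.98 (SE 0.25, adjusted p = 0.848, limma) and 0.58 (SE 0.25, adjusted p = 0.9998), which did not pass. The glucose transporter Slc2a1 (GLUT1) was at 7.93 and 7.38 in CD16/32HI IL-15+/+ arrays and at 9.13 and 8.36 in CD16/32HI IL-15-/- arrays. In CD16/32LO cells it was at 8.94 and 8.35 against 8.57 and 9.03. The groups were apart in CD16/32HI cells (log2 difference 1.09, SE 0.35) and overlapped in CD16/32LO cells (0.16, SE 0.35). The array at 9.13 is the one with exchanged markers, and without that mouse Slc2a1 differed by 0.71 (SE 0.38) in CD16/32HI and 0.38 (SE 0.38) in CD16/32LO cells. Slc2a3 (GLUT3), the high-affinity glucose transporter of neurons and leukocytes, was at 5.97 and 5.35 against 6.53 and 5.66 in CD16/32HI cells and at 6.72 and 6.77 against 5.49 and 6.75 in CD16/32LO cells. The genotypes overlapped in both, and the array at 5.49 stood far below the rest of its population. Its log2 differences were 0.43 (SE 0.44) and -0.62 (SE 0.44), and without the IL-15-/- mouse of replicate 1 0.0018 and 0.0032 (SE 0.35 each).

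Hexokinases trap glucose in the cell as glucose 6-phosphate. Hk2, the inducible form, was at 7.23 and 7.02 in CD16/32HI IL-15+/+ arrays, 7.90 and 7.83 in CD16/32HI IL-15-/- arrays, 7.34 and 7.32 in CD16/32LO IL-15+/+ arrays, and 7.52 and 8.35 in CD16/32LO IL-15-/- arrays. All 4 IL-15-/- arrays were higher, by 0.67 over both populations (SE 0.22, adjusted p = 0.792). Hk3, the hexokinase of myeloid cells, was at 6.47 and 5.77 against 7.11 and 6.32 in CD16/32HI cells and at 6.96 and 6.96 against 6.46 and 6.72 in CD16/32LO cells. It thus overlapped in CD16/32HI cells (0.59, SE 0.33) and was lower in both CD16/32LO IL-15-/- arrays (-0.37, SE 0.33). With the arrays of the replicate 1 IL-15-/- mouse removed, these were 0.20 (SE 0.36) and -0.24 (SE 0.36), and those of Hk2 were 0.70 in CD16/32HI and 1.03 in CD16/32LO cells (SE 0.31 each). Hk1, the form most cells use, differed by -0.18 in CD16/32HI and -0.05 in CD16/32LO cells, and its dimmer second probe set by 0.59 and 0.24, so that the direction for Hk1 depends on the probe set.

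Most enzymes downstream of hexokinase had differences of a like size in both populations. Ldha, the lactate dehydrogenase subunit that favors lactate, was at 9.17 and 8.71 in CD16/32HI IL-15+/+ arrays and 9.55 and 9.73 in CD16/32HI IL-15-/- arrays. In CD16/32LO cells Ldha was at 9.08 and 9.16 against 9.75 and 9.69. Every IL-15-/- array lay above every IL-15+/+ array, by 0.65 over both populations (SE 0.21, adjusted p = 0.788). Tpi1, which interconverts the triose phosphates, was at 9.53 and 9.50 against 9.74 and 10.24 in CD16/32HI cells and at 9.04 and 8.999 against 9.94 and 9.52 in CD16/32LO cells. The groups were apart within each population, by 0.48 (SE 0.26) and 0.71 (SE 0.26), though the lowest IL-15-/- array, in CD16/32LO cells, did not exceed both CD16/32HI IL-15+/+ arrays. Leaving out the replicate 1 IL-15-/- mouse gave 0.73 and 0.50 for Tpi1 (SE 0.30 each). Over both populations the ATP-yielding kinase Pgk1 differed by 0.57 (SE 0.21), aldolase Aldoa by 0.64 (SE 0.23) and phosphoglycerate mutase Pgam1 by 0.56 (SE 0.21). These 3 were apart in all 8 arrays, at unadjusted p of 0.0158, 0.0146 and 0.0191 and adjusted p of 0.915, 0.911 and 0.961. Of the phosphofructokinase subunits, which set the pace of glycolysis, Pfkl (0.40, SE 0.22) was apart, and Pfkm (0.12, SE 0.21) and Pfkp (0.22, SE 0.24) overlapped.

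Aldoc, a second aldolase, did not share this pattern. It was at 8.08 and 7.08 in CD16/32HI IL-15+/+ arrays, 6.31 and 8.35 in CD16/32HI IL-15-/- arrays, 6.41 and 6.04 in CD16/32LO IL-15+/+ arrays, and 8.35 and 6.10 in CD16/32LO IL-15-/- arrays. Its high arrays were those with high macrophage markers, whichever label they carried, and its genotype differences of -0.25 (SE 0.80) and 1.002 (SE 0.80) both held overlapping groups. Both turned sign when the replicate 1 IL-15-/- mouse was removed, to 0.77 (SE 0.43) in CD16/32HI and -0.13 (SE 0.43) in CD16/32LO cells.

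Pfkfb3, Pfkfb4 and Pdk1 steer carbon into or past glycolysis. Pdk1, the kinase that shuts pyruvate dehydrogenase, was at 7.27 and 6.89 against 7.39 and 7.73 in CD16/32HI cells and at 7.01 and 6.51 against 7.68 and 7.35 in CD16/32LO cells. All 4 IL-15-/- arrays were higher, by 0.48 (SE 0.28) and 0.75 (SE 0.28, unadjusted p = 0.0247, adjusted p = 0.9998). Pfkfb3, which makes the sugar phosphate activator of phosphofructokinase, was at 7.77 and 7.56 against 8.96 and 8.14 in CD16/32HI cells and at 8.63 and 8.20 against 8.17 and 8.91 in CD16/32LO cells. The genotypes were apart in CD16/32HI cells (0.88, SE 0.35) and overlapped in CD16/32LO cells (0.12, SE 0.35). Without the IL-15-/- mouse of replicate 1, whose arrays hold the values 8.96 and 8.17, Pfkfb3 differed by 0.47 and 0.49 (SE 0.33 each). Pfkfb4, an isoform of the same enzyme, overlapped in both (0.20 and -0.07, SE 0.34 each).

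Oxygen sensing held the largest difference. Egln3 was at 6.44 and 6.09 in CD16/32HI IL-15+/+ arrays and at 10.81 and 7.39 in CD16/32HI IL-15-/- arrays. In CD16/32LO cells Egln3 was at 9.53 and 9.62 against 7.98 and 10.52. The IL-15-/- arrays were higher in CD16/32HI cells and lay on both sides of the IL-15+/+ arrays in CD16/32LO cells. The CD16/32HI difference was 2.84 (SE 1.05, unadjusted p = 0.0251, adjusted p = 0.848) and the CD16/32LO difference -0.32 (SE 1.05, adjusted p = 0.9998). The Egln3 value of 10.81 was in the CD16/32HI array whose neutrophil markers were high, and 7.98 in the CD16/32LO array whose macrophage markers were high. Without that mouse the differences were 1.13 in CD16/32HI and 0.95 in CD16/32LO cells (SE 0.32 each), and within replicate 2 they were 1.30 and 0.90. Both pairs of values rest on the same IL-15-/- arrays, those of replicate 2. Within replicate 2 the medians over all probe sets were 0.22 and 0.24. As means over both populations of a mouse, which do not depend on which array holds which population, the differences were 1.41 in replicate 1 and 1.10 in replicate 2. Egln1, the main oxygen sensor, and Hif1a were apart in all arrays by 0.40 (SE 0.21) and 0.38 (SE 0.21) over both populations, with adjusted p of 0.995 each. For Hif1a the margin was narrow, since both CD16/32LO arrays of replicate 1 were at 10.91.

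Among other hypoxia genes Mif, a macrophage-activating cytokine, and Vegfa, the main angiogenic factor, differed most. Mif was at 11.39 and 10.07 against 11.66 and 11.60 in CD16/32HI cells and at 10.65 and 10.17 against 11.85 and 11.23 in CD16/32LO cells. The genotypes were apart within each population, by 0.90 (SE 0.42) and 1.13 (SE 0.42), and by 1.01 over both (SE 0.28, adjusted p = 0.455). The low Mif arrays included both IL-15+/+ arrays of replicate 2, and without that mouse the difference over both populations was 0.56. The CD16/32HI difference of Mif was 0.24 without the IL-15+/+ array of replicate 2 and 1.56 without that of replicate 1. Vegfa was at 6.67 and 6.34 against 8.15 and 7.14 in CD16/32HI cells and at 7.25 and 6.99 against 7.44 and 7.41 in CD16/32LO cells. It was apart in both, by 1.14 (SE 0.33) and 0.30 (SE 0.33), and by 0.72 over both populations (SE 0.24, adjusted p = 0.796). The Vegfa array at 8.15 is the one with exchanged markers, and without that mouse the differences were 0.63 (SE 0.32) in CD16/32HI cells, 0.29 (SE 0.32) in CD16/32LO cells and 0.46 (SE 0.34) over both.

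Bnip3, which directs mitochondria to autophagy, was at 9.05 and 9.09 against 9.32 and 9.77 in CD16/32HI cells and at 8.59 and 8.96 against 9.85 and 9.11 in CD16/32LO cells. All 4 IL-15-/- arrays were higher, the lowest of them at 9.11 against 9.09 in the highest IL-15+/+ array, and the difference over both populations was 0.59 (SE 0.21, adjusted p = 0.915). The CD16/32LO difference of 0.71 (SE 0.30) became 0.33 (SE 0.32) without the IL-15-/- mouse of replicate 1 and 1.08 when replicate 2 of the CD16/32LO IL-15-/- group was left out instead. Higd1a, a mitochondrial protein of the inner membrane, was at 10.24 and 9.95 against 9.84 and 10.49 in CD16/32HI cells and at 9.19 and 9.66 against 10.29 and 10.07 in CD16/32LO cells. It overlapped in the former (0.07, SE 0.29) and was apart in the latter (0.75, SE 0.29), while its second probe set differed by -0.07 and 0.42. With the same mouse left out, Higd1a differed by 0.39 and 0.64 (SE 0.34 each). P4ha1, a collagen prolyl hydroxylase subunit, was apart in all arrays (0.56, SE 0.21). The related P4ha2 (0.24), the Bnip3 relative Bnip3l (0.10), the mTORC1 inhibitor Ddit4 (0.28), the ankyrin repeat gene Ankrd37 (0.42), the stress gene Ndrg1 (0.18) and the vasodilator peptide Adm (0.25) had smaller differences over both populations, with adjusted p of 0.995 each.

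In single populations 0 of 32 members were called. In CD16/32HI cells 0.0214% of all probe sets were called, and 8 members, all higher in IL-15-/- tumors, against 4.93% of all had an unadjusted p under 0.05. These were Slc16a3, Vegfa, Slc2a1, Ldha, Egln3, Hk2, Aldoa and Pfkfb3. In CD16/32LO cells 0.0342% were called, and 10 members, all higher, against 1.94% of all were under 0.05: Pgam1, Pgk1, Tpi1, Pdk1, Mif, Higd1a, Ldha, P4ha1, Bnip3 and Slc16a3. Without the IL-15-/- mouse of replicate 1 these counts were 6 (Ldha, Pgk1, Tpi1, Hk2, Slc16a3 and Egln3) against 5.4% of all in CD16/32HI cells and 3 (Hk2, Slc16a3 and Egln3) against 3.46% in CD16/32LO cells. The member medians were 0.47 and 0.34, against 0.09 and 0.13 over all. Both IL-15-/- arrays lay above both IL-15+/+ arrays in 20 members in CD16/32HI cells, beside 23.4% of all, and in 21 in CD16/32LO cells, beside 23.8%. The methods' one-way test with its 3-fold filter called 0 members in each population, beside 10 of all probe sets in CD16/32HI and 20 in CD16/32LO cells. The paper names no p threshold for that test, so these counts rest on a threshold added here. By size alone Egln3 in CD16/32HI cells, at 7.17-fold, passed the 3-fold filter.

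**Figure D2:**
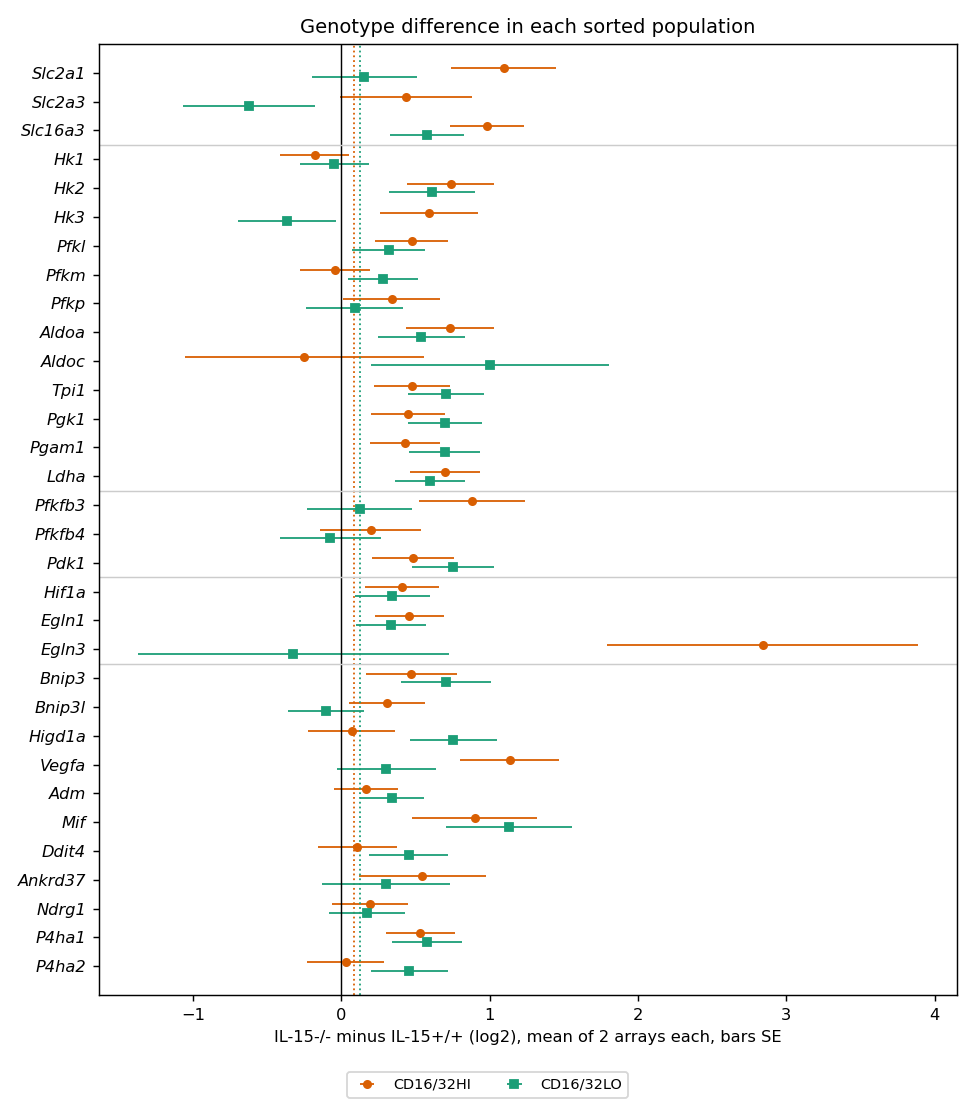
IL-15-/- minus IL-15+/+ difference (log2, horizontal axis) of each member in CD16/32HI cells (orange circles) and CD16/32LO cells (green squares), from 2 arrays per group, with bars of 1 SE from limma. Dotted lines mark the median of all probe sets, 0.09 in CD16/32HI and 0.13 in CD16/32LO cells, and most members lie to the right of them, with Egln3 in CD16/32HI cells farthest out at 2.84.

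Most members had the same direction in both replicates. In replicate 1, where both genotypes were normalized together, the IL-15-/- mouse was higher in 27 of 32 members, with a median of 0.38 as the mean over both populations, while the median over all probe sets was -0.0017 and 49.6% of all were above 0. In replicate 2, where they were normalized apart, 31 of 32 members were higher, with a median of 0.49 against 0.23 over all and 77.1% of all above 0. The replicate 1 differences of the 12 members with no overlap ran from 0.20 (Pfkl) to 0.76 (Bnip3), and Ldha was at 0.52 and 0.77 in replicates 1 and 2. Slc2a3 (-0.33), Pfkfb4 (-0.24), Ndrg1 (-0.05), Pfkm (-0.05) and Hk1 (-0.0042) were the 5 below 0 in replicate 1.

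**Figure D3:**
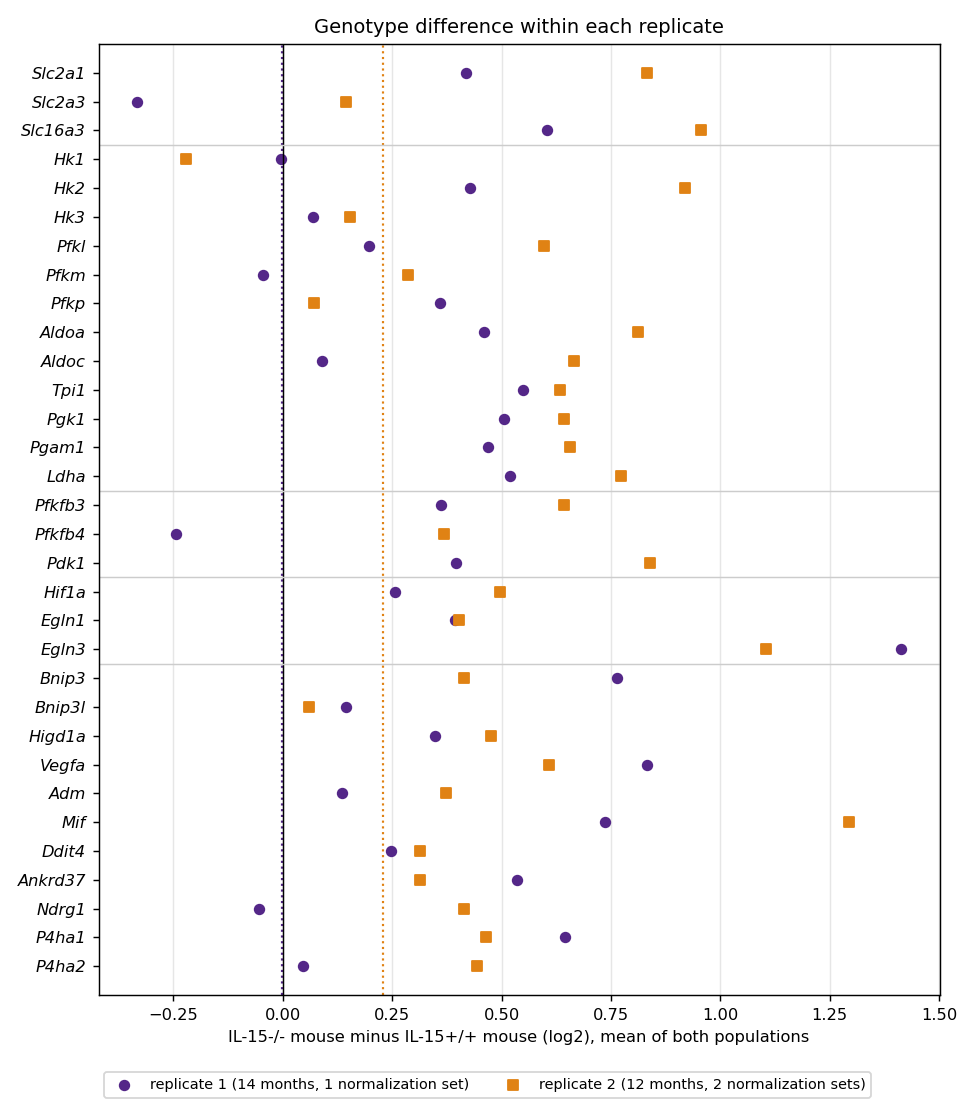
IL-15-/- minus IL-15+/+ difference (log2, horizontal axis) of each member as the mean of both populations of a mouse, with 1 mouse per genotype in each replicate. Purple circles are replicate 1, normalized as 1 set, and orange squares replicate 2, normalized as 2 sets. Dotted lines mark the medians of all probe sets (-0.0017 and 0.23), and 27 of 32 members lie above 0 in replicate 1 and 31 of 32 in replicate 2.

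Other transcripts moved with genotype too. Over both populations 4 of 10 natural killer and large granular lymphocyte markers were called, each lower in IL-15-/- tumors, beside 0.171% of all probe sets. These were Gzma (by 2.46), Nkg7 (1.93), Klrd1 (1.71) and Klrc1 (1.62 on the log2 scale). Of the 10 markers 0 had a higher mean in IL-15-/- tumors, and 9 were lower at an unadjusted p under 0.05 (limma). Their summed signal was 8.47 to 8.89 in IL-15-/- and 9.16 to 10.92 in IL-15+/+ arrays. Among 5 T cell markers 1 had a higher mean in IL-15-/- tumors, and 2 were called, Cd3g and Cd3d, lower by 1.82 and 1.67. Of 10 neutrophil markers 7 had a higher mean, and 1 was called, Mmp9, higher by 1.503 (limma, adjusted p = 0.0122). Of 9 macrophage markers 0 were called (0 at an unadjusted p under 0.05). Their part in the result was not tested. In sorted bulk samples, fewer cells of a type and less RNA per cell cannot be told apart.

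Between the sorted populations members differed in both directions once the mouse with exchanged markers was set aside. With all 4 mice, limma within mice called 0 of 32 members, beside 0% of all (0 members and 276 probe sets at an unadjusted p under 0.05). Without the IL-15-/- mouse of replicate 1 it called 7 members, beside 13.7% of all. Aldoc and Tpi1 were higher in CD16/32HI cells, and Egln3, Slc2a3, Slc2a1, Pfkfb3 and Hk3 were higher in CD16/32LO cells. The count is not far above that background share and says nothing particular about the members as a group.

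Egln3 had the widest contrast. CD16/32HI minus CD16/32LO was -3.09 and -3.53 in the IL-15+/+ mice and -3.13 in the IL-15-/- mouse of replicate 2, but 2.84 in that of replicate 1. The mean of the 3 concordant mice was -3.25 (SE 0.15, adjusted p = 2.15e-05). The glucose transporters followed the same direction, with Slc2a1 at -1.01, -0.97 and -0.66 in the 3 mice and 0.56 in the other (3-mouse difference -0.88, SE 0.14, adjusted p = 0.00415). Slc2a3 was at -0.75, -1.42 and -1.09, and 1.03 in the other (-1.09, SE 0.16, adjusted p = 0.00262). Pfkfb3 (-0.76, SE 0.14) and Hk3 (-0.69, SE 0.18) were also higher in CD16/32LO cells, with adjusted p of 0.00725 and 0.0353. All 5 were thus higher in the arrays with high neutrophil markers and lower in those with high macrophage markers, in each of the 4 mice. Aldoc ran the opposite way, at 1.67, 1.04 and 2.26 in the 3 mice and -2.05 in the other (1.66, SE 0.21, adjusted p = 0.00124), as did Tpi1 at 0.48, 0.50 and 0.72 and -0.20 (0.57, SE 0.14, adjusted p = 0.0276). In 22 of 32 members the 3 mice shared a sign, and in all 22 the IL-15-/- mouse of replicate 1 had the opposite one, beside 84.7% of the 10928 probe sets of the same kind. Ldha (-0.11, SE 0.16), Aldoa (0.07, SE 0.17), Pfkl (0.05, SE 0.15) and Hif1a (-0.04, SE 0.17) had 3-mouse differences smaller than their SE.

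**Figure D4:**
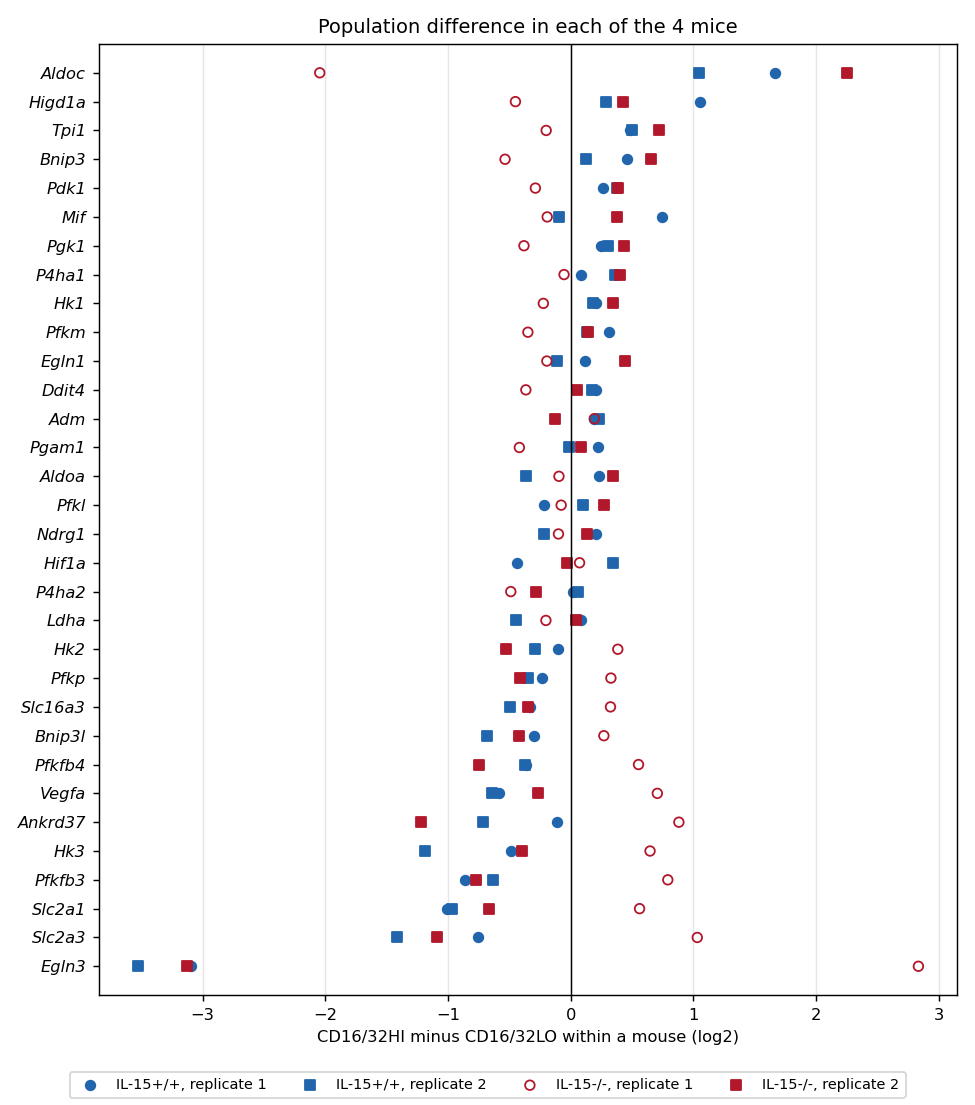
CD16/32HI minus CD16/32LO difference (log2, horizontal axis) of each member in the 4 mice, ordered by the mean of the 3 mice with filled symbols. Blue is IL-15+/+, red IL-15-/-, circles replicate 1 and squares replicate 2. The open red circles, the IL-15-/- mouse of replicate 1, lie across 0 from the filled symbols in 22 members, with Egln3 at 2.84 against -3.09 to -3.53.

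In the IL-15+/+ mice alone, from the fit over all 4 mice, 0 members were called, beside 0% of all (1 member, Slc2a1, at an unadjusted p under 0.05). When the spread was taken without the IL-15-/- mouse of replicate 1, 6 were called, beside 8.53% of all. Aldoc was higher in CD16/32HI cells (1.35, SE 0.21), and Egln3 (-3.31, SE 0.20), Slc2a3 (-1.09, SE 0.21), Slc2a1 (-0.99, SE 0.18), Hk3 (-0.84, SE 0.22) and Pfkfb3 (-0.75, SE 0.19) were higher in CD16/32LO cells. Hk3 lay at the threshold, with an adjusted p of 0.04998. The population difference itself was not shown to depend on genotype, since limma called 0 members for it, beside 0% of all (0 members and 639 probe sets at an unadjusted p under 0.05). Its largest member values were 3.16 (SE 2.02) in Egln3, -1.25 (SE 1.48) in Aldoc and 1.06 (SE 0.78) in Slc2a3, and without the IL-15-/- mouse of replicate 1 these were 0.18 (SE 0.34), 0.90 (SE 0.37) and -0.0014 (SE 0.37).

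Over both populations, with all 4 mice, the medians of neighbouring pathways lay nearer to that of all probe sets than to that of the members. Of 17 measured other glycolytic enzymes, 12 genes of pyruvate and lactate handling, 11 of the pentose phosphate path and glycogen, 12 of oxygen sensing and 26 further hypoxia-inducible genes, 0 were called over both populations (limma; 2, 0, 0, 1 and 4 at an unadjusted p under 0.05), and 0 in either population alone. Their medians were 0.18, 0.21, 0.15, 0.21 and 0.22, against 0.42 in the members and 0.11 over all probe sets. The largest differences over both populations were those of the glucose phosphate mutase Pgm1 (0.59) and pyruvate kinase Pkm (0.49), of the pyruvate dehydrogenase phosphatase subunit Pdpr (0.43) and the monocarboxylate transporter Slc16a1 (0.42), of the glycogen enzymes Pygb (0.45) and Gys1 (0.44), of elongin B, Elob (0.69), and the histone demethylase Kdm3a (0.45), and of heme oxygenase Hmox1 (1.05) and the disulfide oxidase Ero1l (0.74). Without the IL-15-/- mouse of replicate 1, which leaves 1 IL-15-/- mouse, the Hmox1 difference was 1.60. In all 26 further hypoxia-inducible genes the IL-15-/- mean was the higher one, beside 72.2% of all probe sets. Without that mouse it was higher in 22, beside 66.8% of all. All 4 IL-15-/- arrays lay above all 4 IL-15+/+ arrays in 1 of the 26, beside 3.21% of all. The same held for 3 of the 17 other glycolytic enzymes, and for 1 gene in each of the lists of 12, 11 and 12. The lists were not matched for signal. Below the median of every array lay, among others, Plod2 (3.52 to 4.29), Lox (3.90 to 4.26) and Fbp1 (4.28 to 4.89) of these lists. Among the members P4ha2, Pfkm and Adm did.

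Between the populations, in the 3 concordant mice, the same lists held called genes in both directions. Higher in CD16/32HI cells were the monocarboxylate transporters Slc16a7 (1.64) and Slc16a1 (1.04), the mitochondrial pyruvate carrier subunit Mpc1 (0.76), the lactate dehydrogenase subunit Ldhb (1.19), the placental growth factor Pgf (1.86), Hmox1 (1.30) and the syndecan Sdc4 (0.84). Higher in CD16/32LO cells were glycogen phosphorylase Pygl (-1.18), the pentose phosphate enzyme Pgd (-0.76), the glycogen branching enzyme Gbe1 (-0.53), the transferrin receptor Tfrc (-1.43), the transcriptional repressor Bhlhe40 (-0.95), Ero1l (-0.57), and the oxygen sensing genes Hif1an (-0.68), Kdm3a (-0.64), Cited2 (-0.63) and Arnt (-0.62). The member Slc16a3, of the same transporter family as Slc16a1, was at -0.39 (SE 0.14, adjusted p = 0.102), which did not pass.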

How the data were processed

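RNA of cells sorted by CD16/32 staining from 4 tumors was hybridised to 8 Affymetrix Gene Chip, Whole Transcript 1.0ST arrays. As deposited, the data are log2 values of each probe set, made by the authors with RMA in Affymetrix Expression Console per the submitters' processing notes (versions not given in the sources used here). Samples were grouped by the labels. Gene symbols came from the platform annotation (35557 probe sets, 21789 with 1 symbol, 1621 with several, the rest unnamed here), and Ero1l was matched as Ero1a. Differences were tested with limma 3.58.1 in R 4.3.3 on the 23410 probe sets with a symbol, with Benjamini-Hochberg adjustment and calls at an adjusted p under 0.05. Genotypes were compared within each population on all 8 arrays, and over both populations on the mean of the 2 arrays of each mouse. Populations were compared with the mouse as a block, since the labels place both arrays of a mouse in 1 tumor by genotype, replicate and age. The fits were tested on simulated data. Members and lists were chosen with earlier results of these data known. Values in every array are given for called members and for the 6 members with the largest difference in each comparison. From the other lists the called genes and, between genotypes over both populations, the 2 with the largest difference are named. Of the 3 probe sets of Pgk1 and of Pgam1, 2 hold equal values. Alternatives covered normalization, probe sets tested, a filter on dim probe sets, blocks and arrays left out. Promoter windows are those of RefSeq, GRCm38.p6.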

Additional observations from a re-analysis of the deposited data

Results flagged for a closer look

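P4ha2, a collagen prolyl hydroxylase subunit, drew attention because its difference between the populations had opposite signs in the genotypes, though it was slight in the IL-15+/+ mice. Its signal was low, at 4.63 to 5.41, below the median of every array. CD16/32HI minus CD16/32LO was 0.02 and 0.06 on the log2 scale in the IL-15+/+ mice and -0.49 and -0.29 in the IL-15-/- mice, a difference between the genotypes of -0.43 (SE 0.23). By limma it did not pass (unadjusted p = 0.126, adjusted p = 0.883). The first of the IL-15-/- mice is the one whose macrophage and neutrophil markers were exchanged, and without it the difference was -0.33 (SE 0.32).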

How the results depend on the processing

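Between genotypes the count of members called stayed at 0 in either population under each of 18 alternatives, and the member medians ran from 0.24 (quantile normalization) to 0.54 and from 0.22 to 0.52. The number of all probe sets called fell from 5 to 0 in CD16/32HI and from 8 to 2 in CD16/32LO cells with the normalization set as a block, and rose from 8 to 20 in CD16/32LO cells when the IL-15-/- mouse of replicate 1 was left out. Leaving out single arrays gave 2 to 4 and 3 to 11, and the methods' test 10 and 20.

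Over both populations the 1 member called, with 40 of all probe sets, became 0 with each array centred on its median (17 of all), with quantile normalization (15), with all probe sets of the file (7) and with the mouse as a random block (6). Each fit that leaves out 1 mouse holds only 1 mouse of that genotype. Without the IL-15+/+ mouse of replicate 1 the Mif difference was 1.47. The Egln3 call was lost without the IL-15+/+ mouse of replicate 2 or the IL-15-/- mouse of replicate 1. With a replicate block 3 members passed (266 of all), Egln3 (7.86e-06), Mif (0.00131) and Slc16a3 (0.0458). Mice of the same replicate share a number and an age, and those of replicate 1 also a normalization set, but the labels name no pairing and 2 pairs cannot show one.

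Between populations the counts were 0 under each alternative that kept all mice, no replicate block included. Leaving out 1 mouse gave 0 to 7 members for the population difference (7 without the IL-15-/- mouse of replicate 1, 3205 of all), 0 to 6 in IL-15+/+ mice (6 without either IL-15-/- mouse, 1996 of all) and 0 to 7 for the difference between genotypes (7 without the IL-15-/- mouse of replicate 2, 2680 of all, which leaves the mouse with exchanged markers as the IL-15-/- group). In these fits and over both populations whole mice were left out, since both arrays of a mouse are needed. Among the 6 members with the largest difference in each comparison, signs turned in 3 cases, all without the IL-15-/- mouse of replicate 1. Aldoc between genotypes in CD16/32LO cells became -0.13, also without its CD16/32LO array alone, in a range of -0.13 to 2.13. The differences between genotypes in the population contrast became 0.90 for Aldoc (range -3.40 to 0.90) and -0.0014 for Slc2a3 (range -0.0014 to 2.12). Outside those members signs turned without that mouse too. Among them were Aldoc in CD16/32HI cells (-0.25 to 0.77) and Egln3 in CD16/32LO cells (-0.32 to 0.95). With 2 arrays a group, smaller differences could not be separated from the spread between mice, and no detection calls were used here.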
